A study of Gallus gallus with 6 samples.

Results

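The transcripts of the cytosolic ribosomal protein genes were followed in 3 OFT-banded and 3 sham chick hearts. Members were taken by name, as every transcript whose whole gene symbol was RPL or RPS with a number, RPLP0 to RPLP2 or RPSA, so that mitochondrial ribosomal proteins and the S6 kinases stayed out. This rule found 57 of 6919 transcripts, under 53 of 6542 symbols. Of these symbols, 50 were listed once, namely 30 proteins of the large (60S) subunit, 16 of the small (40S) subunit and the 4 paralogues RPL22L1, RPS27L, RPL7L1 and RPL3L. The other 3 symbols, RPS24, RPL12 and RPS27A, were listed more than once, with 7 transcripts between them, and are given apart.

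The study asked how the developing heart responds to a raised pressure load. In OFT-banded embryos, all of the Dekalb white strain like their controls, the outflow tract was tied with a suture at Hamburger-Hamilton stage (HH) 21 that stayed in place until harvest, whereas sham embryos had the same operation but were left with no tie. Whole hearts were collected at HH29 and each gave 1 library, so the 3 hearts of a group are separate embryos. In both groups globin transcripts were depleted before polyadenylated RNA was sequenced, and the RNA was partly degraded after freezing and thawing. The labels tag the banded samples as outflow tract, but the methods describe whole hearts. Cardiomyocyte transcripts were high in every heart: of 16 such markers 12 were listed, with a mean between 124 RPKM for the transcription factor GATA4 and 17942 RPKM for the myosin light chain MYL2. RPKM is reads per kilobase of transcript, scaled to the reads of the library. The low values stepped in whole reads, and from these steps 1 RPKM stood for 30.2, 41.2 and 36.0 reads per kilobase in OFT-banded hearts 6, 11 and 17, against 32.6, 37.6 and 21.2 in sham hearts 38, 48 and 42. Since a heart holds many cell types, fewer cells of a type and less RNA per cell cannot be told apart.

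Ribosomes translate every mRNA, and each holds a copy of nearly all ribosomal proteins together with ribosomal RNA. Transcripts of these proteins begin with a terminal oligopyrimidine (TOP) tract, through which mTOR signalling adjusts their translation as a group, and growing tissue such as embryonic myocardium makes them in large amounts. A few have paralogues, which can take the place of the usual protein in the ribosome or act outside it.

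Ribosomal protein transcripts were among the most abundant in the HH29 heart. The 46 subunit genes listed once had a median level of 3426 RPKM over the 6 hearts, against 28.2 RPKM for all 4726 transcripts with a mean of at least 1 RPKM. Of the 122 transcripts at 1000 RPKM or more, 46 were these genes, and they held 28 of the 50 highest places. Levels ran from 1030 RPKM for RPS14, a protein of the 40S platform, to 6584 RPKM for RPLP1, an acidic protein of the stalk that recruits elongation factors, a ratio of 6.39. RPL37A (6359 RPKM) and RPLP1 led the 60S genes, and RPS2, RPS3A and RPSA led the 40S genes. The median was 3070 RPKM for 60S genes and 3653 RPKM for 40S genes. The order of the genes differed little between hearts: across these 46 genes, which are not independent replicates, Spearman's rho was at least 0.90 for every pair of hearts. Pearson's r of their log2 levels lay between 0.94 and 0.99.

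**Figure D1:**
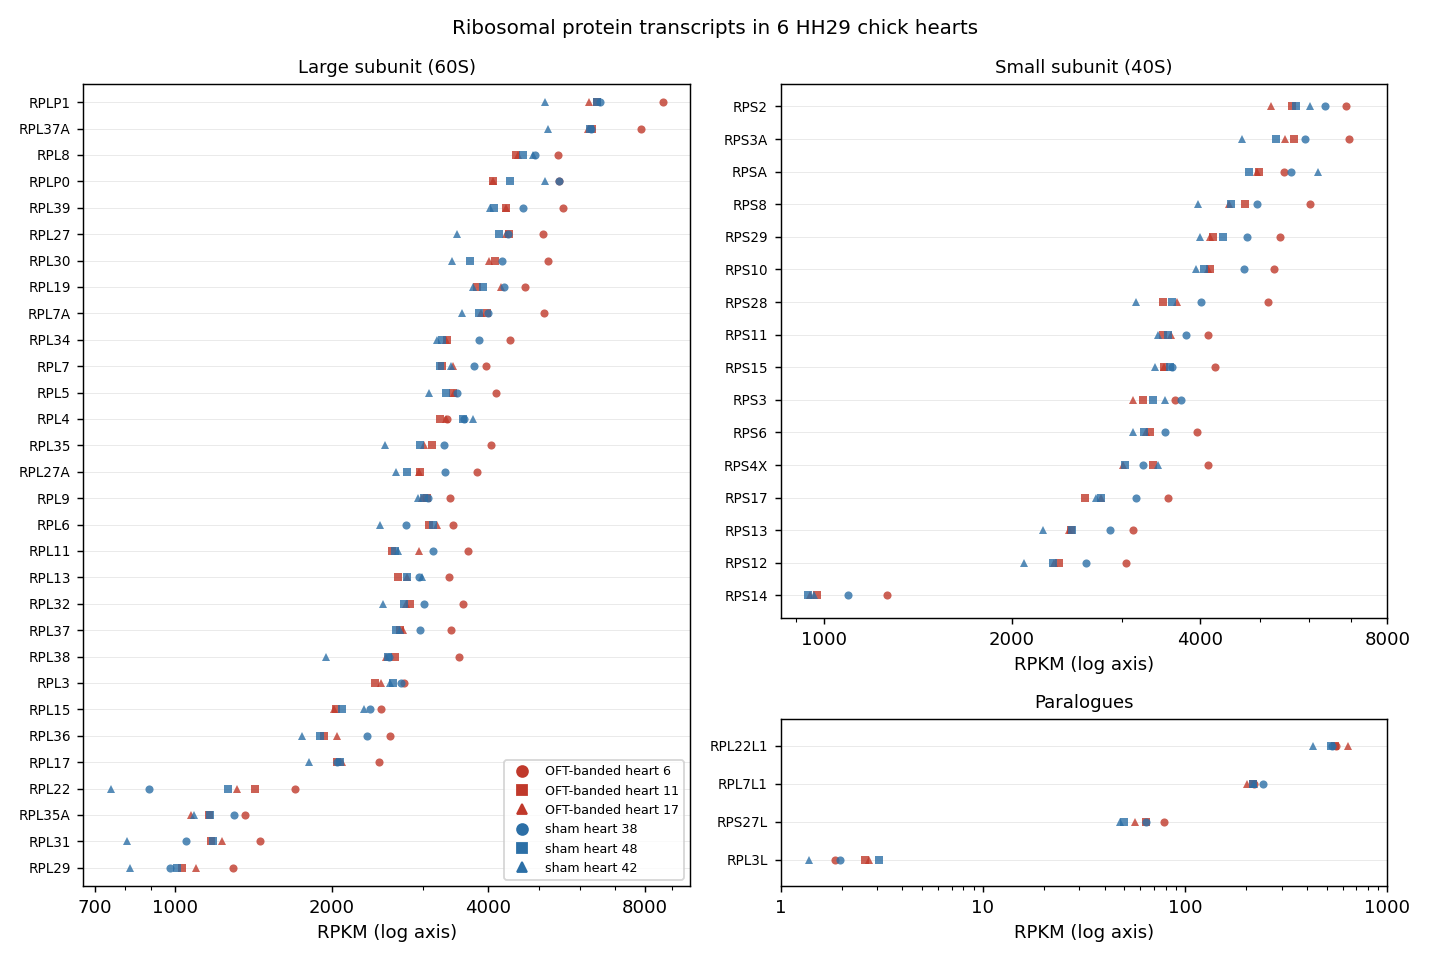
Level of each of the 50 ribosomal protein genes listed once, in RPKM on a log axis, with 1 point per heart (red, OFT-banded; blue, sham). The subunit genes sit between about 1000 RPKM (RPS14) and 6584 RPKM (RPLP1) on average, and the 4 paralogues lie below all of them.

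The groups differed by less than the hearts within them. Against each gene's own mean over 6 hearts on the log2(RPKM + 1) scale, the median of the 46 genes was 0.27 in OFT-banded heart 6, -0.05 in heart 11 and -0.05 in heart 17. In sham hearts this median was 0.06 in heart 38, -0.07 in heart 48 and -0.15 in heart 42. OFT-banded heart 6 had the highest level of 42 of the 46 genes, 28 of them 60S and 14 of them 40S. It was at an extreme for many other markers, with the highest level of 6 and the lowest of 2 of 12 tested cardiomyocyte markers. It was lowest for 7 and highest for 1 of 9 fibroblast and epicardial markers, and lowest for 4 and highest for 1 of 7 endothelial markers. Of 13 erythroid markers it was lowest for 9, but the summed erythroid level of 7617 RPKM was above the 6352 RPKM of heart 11. The summed cardiomyocyte level was 77801, 71978 and 76303 RPKM in OFT-banded hearts 6, 11 and 17. In sham hearts 38, 48 and 42 it was 66604, 65435 and 51979 RPKM. Every OFT-banded sum was thus above every sham sum, though 0 of the 12 single markers were free of overlap, against 16.3% of all transcripts. The summed fibroblast and epicardial level was 955 RPKM in heart 6, 1420 and 1353 in the other OFT-banded hearts, and 965, 1332 and 1502 RPKM in sham hearts 38, 48 and 42. The share of all transcripts at their highest or lowest in a given heart was not counted, so these counts have no background. Heart 6 also had the lowest median-ratio size factor, the number its values are divided by, at 0.926 against 0.987 to 1.06. Its summed RPKM over all transcripts was the highest, 780609 against 713339 to 744638. The part of cell makeup or of scaling in the high ribosomal protein level of heart 6 was not tested. Sham heart 42, the shallowest library, had the lowest level of 30 of the 46 genes. It also had the lowest summed cardiomyocyte level, 51979 RPKM, and the highest summed erythroid level, 42214 RPKM. The part of depth or of makeup in the low ribosomal protein level of heart 42 was not tested. Both subunits moved together in each heart, with medians of 0.28 for 60S genes and 0.27 for 40S genes in heart 6, and of -0.17 for 60S genes and -0.11 for 40S genes in heart 42. The mean of the heart medians was 0.11 higher in OFT-banded hearts than in sham hearts, against a pooled SD of 0.15 within the groups.

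The summed level set heart 6 apart and not the groups. Of all RPKM in a heart, the 46 genes took 24.2%, 21.1% and 20.95% in OFT-banded hearts 6, 11 and 17, against 22.0%, 21.2% and 20.2% in sham hearts 38, 48 and 42. The ranges overlapped, the means being 22.1% ± 1.86 in OFT-banded hearts and 21.1% ± 0.923 in sham hearts (SD, n = 3 each). Without heart 6 the OFT-banded mean was 0.10 percentage points below the sham mean (a difference of -0.10), whereas with it the difference was 0.97. Globin transcripts took 1.16% ± 0.452 of all RPKM in OFT-banded hearts and 3.61% ± 1.92 in sham hearts (SD, n = 3 each), and with them left out the difference was 0.44. The summed 40S level over the summed 60S level was 0.616, 0.620 and 0.604 in OFT-banded hearts, against 0.639, 0.617 and 0.652 in sham hearts. This ratio averaged 0.613 ± 0.00825 in OFT-banded hearts and 0.636 ± 0.0174 in sham hearts (SD, n = 3 each), and sham heart 48 lay among the OFT-banded hearts.

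**Figure D2:**
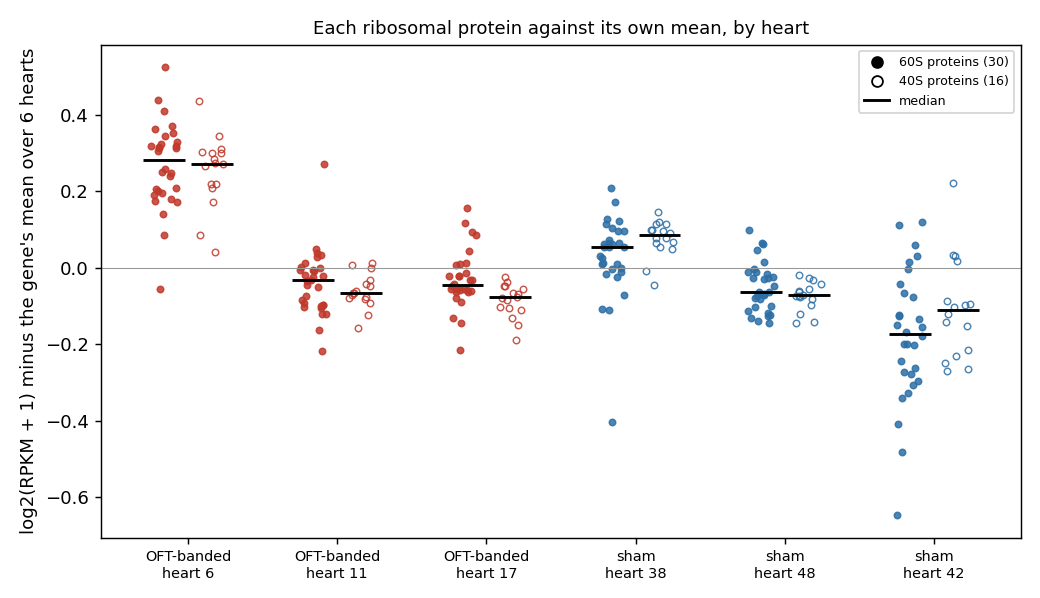
Level of each 60S (filled) and 40S (open) ribosomal protein gene in each heart, as log2(RPKM + 1) minus the gene's mean over the 6 hearts, with black bars at the medians. Nearly all genes are above 0 in OFT-banded heart 6, with a median of 0.27, and most are below 0 in sham heart 42, with a median of -0.15.

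To ask whether banding altered single ribosomal protein transcripts, log2(RPKM + 1) was compared with limma over all transcripts with a mean of at least 1 RPKM, a filter that 51 of the 57 ribosomal protein transcripts passed. At a Benjamini-Hochberg adjusted p of 0.05, limma called 0 of the 51, and 0% of all 4726 transcripts. The study's own DESeq test did call genes at a corrected p under 0.05. At an unadjusted p under 0.05 limma found 1 of 51, RPL22, where 8.57% of all transcripts met that limit in either direction and 3.28% as higher and 5.29% as lower in OFT-banded hearts. The count was 2 without heart 11 (6.47% of all transcripts), 17 (7.07%), 38 (13.8%) or 48 (6.50%). By value alone 43 of the 51 were higher and 8 lower in OFT-banded hearts, with a median log2 fold change of 0.10, against 36.8% of all transcripts higher, 63.2% lower and a median of -0.07. The count was 26 of 30 for 60S genes (median 0.14), 13 of 16 for 40S genes listed once (median 0.08) and 3 of 4 for the paralogues. These counts leaned on the library of heart 6, since without it 27 of 51 were higher by value, with a median of 0.00, against 44.1% of all transcripts.

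Erythroid transcripts were lower by value in OFT-banded hearts. Of 28 erythroid markers 13 were tested, and 12 of these had the lower mean in OFT-banded hearts, with a median log2 fold change of -1.01. None passed an adjusted p of 0.05 by limma on RPKM, though the study's DESeq test listed H1F0 as lower. At an unadjusted p under 0.05, 6 were lower and 1 higher by limma, against 5.29% and 3.28% of all transcripts. In 4 every OFT-banded heart was below every sham heart, against 11% of all transcripts. The summed level of the tested markers lay between 6352 and 12453 RPKM in OFT-banded hearts, against 16590 to 42214 RPKM in sham hearts. This was mostly the globins HBE and HBG1, while HBZ was listed at 0 in all hearts. HBG1 and HBZ were named targets of the globin depletion, and HBE was not. With the mean log2 level of these markers as a covariate, 12 of the 51 ribosomal protein transcripts were higher by value and the median was -0.06. Of all transcripts 50.9% were then higher, with a median of 0.003. With the globin genes left out of the total instead, 35 of the 51 were higher by value and the median was 0.03, against 26.0% and a median of -0.13 for all transcripts. The erythroid covariate is itself tied to the groups, and the part of erythroid RNA in the ribosomal protein values was not tested further.

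**Figure D3:**
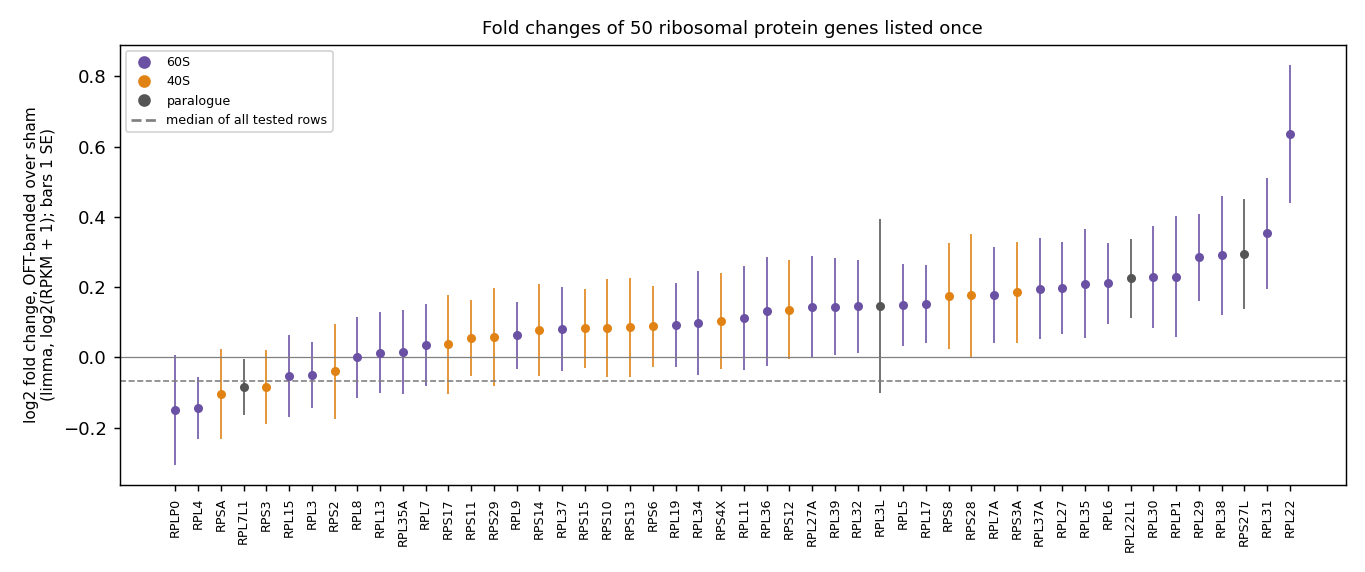
Log2 fold change, OFT-banded over sham, of the 50 ribosomal protein genes listed once, from limma on log2(RPKM + 1), with bars of 1 SE, in order of size. RPL22 stands at 0.64 at the right end and RPLP0 and RPL4 at -0.15 and -0.14 at the left end, and the dashed line marks the median of all tested transcripts at -0.07.

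RPL22 (NM_204141) had the largest log2 fold change of the 51 tested ribosomal protein transcripts. It encodes a 60S protein near the exit of the peptide tunnel that is not needed for translation as such, and in mouse it lowers the mRNA of its paralogue Rpl22l1. RPL22 had 1700, 1426 and 1315 RPKM in OFT-banded hearts 6, 11 and 17, against 892, 1264 and 753 RPKM in sham hearts 38, 48 and 42. Every OFT-banded heart was above every sham heart, but sham heart 48 lay close to OFT-banded heart 17. RPL22 averaged 1481 ± 198 RPKM in OFT-banded hearts and 969.7 ± 264 RPKM in sham hearts (n = 3 each, SD). On the log2 scale the difference was 0.64 (SE 0.20, adjusted p = 0.543 by limma). Counting error was small beside this spread, since even the lowest value, in heart 42, stood for about 15970 reads per kilobase. The log2 fold change lay between 0.47 and 0.84 with any 1 heart left out and was 0.45 with the erythroid covariate. RPL22 was also the most variable subunit gene, with a coefficient of variation of 28.5% over the 6 hearts, against a median of 12.1% for the 46 genes and 13.6% for all tested transcripts.

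RPL22L1, the paralogue, had 558, 548 and 636 RPKM in OFT-banded hearts, against 534, 529 and 430 RPKM in sham hearts. It too was higher in every OFT-banded heart, by a narrow margin over hearts 38 and 48, and heart 17 rather than heart 6 was highest. The log2 fold change was 0.23 (SE 0.11, adjusted p = 0.543 by limma), and 0.12 without heart 42 and 0.15 with the erythroid covariate. The RPL22L1 level over the RPL22 level, both per kilobase, was 0.328, 0.384 and 0.483 in OFT-banded hearts, against 0.599, 0.418 and 0.571 in sham hearts. These ranges overlapped, with heart 17 above heart 48 (p = 0.2 in a two-sided exact permutation test, adjusted p = 0.333 over the 5 ratios computed).

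**Figure D4:**
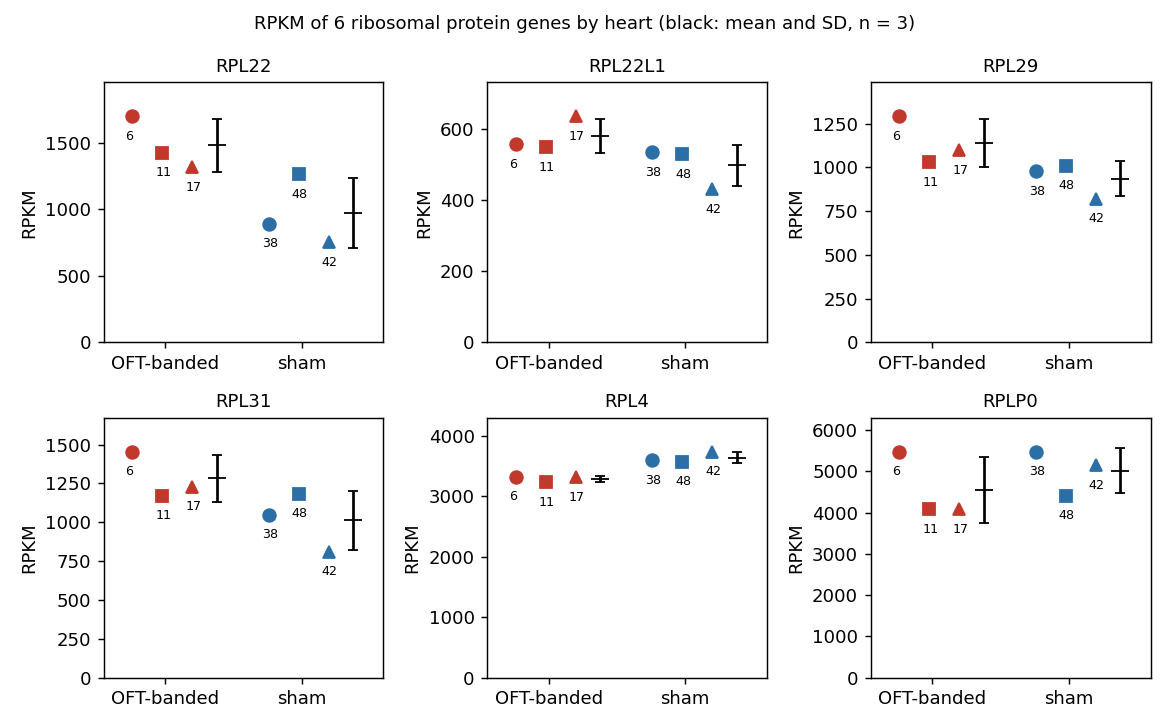
RPKM of RPL22, its paralogue RPL22L1, RPL29, RPL31, RPL4 and RPLP0 in each heart, on axes from 0, with the heart number under each point and the mean and SD of the group in black (n = 3 each). OFT-banded points lie above all sham points for RPL22, RPL22L1 and RPL29 and below them for RPL4, whereas the groups overlap for RPL31 and RPLP0.

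Beside these 2 genes, RPL29 was the only other ribosomal protein with every OFT-banded heart above every sham heart, and RPL4 the only one with every OFT-banded heart below. Thus 3 of 51 were separated upwards, against 5.23% of all transcripts, and 1 of 51 downwards, against 11% of all transcripts. Both directions together gave 4 of 51, against 16.3% of all transcripts. With 1 heart left out this was 20 of 51 without heart 38 (41.3% of all transcripts), 11 without heart 6 (26.1%), 8 without heart 17 (25.8%), 8 without heart 48 (25.9%), 7 without heart 11 (25.6%) and 4 without heart 42 (20.1%). RPL29, a small basic 60S protein whose loss leaves mice small, had 1292, 1030 and 1098 RPKM in OFT-banded hearts, against 979, 1009 and 819 RPKM in sham hearts, and hearts 11 and 48 nearly met. Its log2 fold change was 0.28 (SE 0.12, adjusted p = 0.543 by limma), and 0.12 with the erythroid covariate.

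RPL31 and RPL38 had the largest log2 fold changes after RPL22 among the subunit genes, though the groups overlapped in both. RPL31, another protein near the tunnel exit, had 1455, 1169 and 1228 RPKM in OFT-banded hearts, against 1047, 1183 and 809 RPKM in sham hearts. Heart 48 lay just above heart 11, and the log2 fold change was 0.35 (SE 0.16, adjusted p = 0.543 by limma). It was 0.20 without heart 42 and 0.14 with the erythroid covariate. RPL38, which in mouse is needed for full translation of a set of Hox mRNAs, had 3517, 2643 and 2537 RPKM in OFT-banded hearts, against 2574, 2566 and 1953 RPKM in sham hearts. Heart 6 was high and heart 42 low for RPL38, while the other 4 hearts lay between 2537 and 2643 RPKM. Its log2 fold change was 0.29 (SE 0.17, adjusted p = 0.567 by limma), and 0.14 without heart 6, 0.16 without heart 42 and 0.00 with the erythroid covariate.

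RPL4, which lines the peptide tunnel, had 3325, 3231 and 3314 RPKM in OFT-banded hearts, against 3593, 3571 and 3739 RPKM in sham hearts. It did not follow the high level of the other genes in heart 6, nor the low level in heart 42, where it was in fact highest. The means were 3290 ± 51.4 RPKM in OFT-banded hearts and 3634 ± 91.1 RPKM in sham hearts (SD, n = 3 each). The log2 fold change of -0.14 (SE 0.09, adjusted p = 0.587 by limma), or -0.08 with median-ratio scaling, was small, but RPL4 was also among the 4 least variable ribosomal proteins, with a coefficient of variation of 5.78%. The others were RPL3 at 4.98%, RPL9 at 5.28% and the paralogue RPL7L1 at 5.98%.

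RPLP0, the stalk base that holds RPLP1 and RPLP2, had 5476, 4075 and 4079 RPKM in OFT-banded hearts, against 5476, 4409 and 5145 RPKM in sham hearts. The groups overlapped through heart 6, and the log2 fold change was -0.15 (adjusted p = 0.699 by limma). With 1 heart left out it lay between -0.29 without heart 6 and -0.08 without heart 11, and it was -0.31 with the erythroid covariate. RPLP1 showed the other order, with 8646, 6472 and 6252 RPKM in OFT-banded hearts, against 6549, 6453 and 5134 RPKM in sham hearts (log2 fold change 0.23, adjusted p = 0.621 by limma). Heart 6 again had the highest RPLP1 value, hearts 11 and 17 lay among the sham hearts, and the log2 fold change was 0.08 without heart 6, 0.12 without heart 42 and -0.04 with the erythroid covariate. The RPLP1 level over the RPLP0 level, a ratio chosen after the values were seen, was 1.58, 1.59 and 1.53 in OFT-banded hearts, against 1.20, 1.46 and 0.998 in sham hearts. This ratio separated the groups (p = 0.1 in a two-sided exact permutation test, which can go no lower with 3 against 3, adjusted p = 0.25 over 5 ratios).

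Because the hearts differed in the sum of all ribosomal protein transcripts, each gene was also expressed as a percentage of the summed RPKM of the 46 genes in the same heart, a scaling chosen after the data were seen. On this scale 6 of the 46 were higher in every OFT-banded heart (RPL22, RPL29, RPL30, RPS3A, RPL7A and RPL32), and 6 were lower in every OFT-banded heart (RPLP0, RPL4, RPS3, RPL15, RPL3 and RPS2). Of all tested transcripts, set against the same sum, 2.58% were separated upwards and 9.01% downwards, but these shares are no like background, because the 46 genes make up the sum and the other transcripts do not. Since the percentages of one heart add up to a fixed total, a gain in some genes goes with a loss in others on this scale.

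RPL22 made up 0.898%, 0.936% and 0.867% of the sum in OFT-banded hearts, against 0.544%, 0.836% and 0.522% in sham hearts. The OFT-banded hearts were close together here, at 0.9005% ± 0.0346, whereas the sham hearts were spread, at 0.634% ± 0.175 (SD, n = 3 each). RPLP0 made up 2.89%, 2.67% and 2.69% in OFT-banded hearts, against 3.34%, 2.92% and 3.57% in sham hearts, so that the overlap seen in its RPKM was gone. RPL4 made up 1.76%, 2.12% and 2.18% in OFT-banded hearts, against 2.19%, 2.36% and 2.59% in sham hearts, with heart 17 and heart 38 almost level. RPS3, a protein at the mRNA entry of the 40S subunit, made up 1.93%, 2.13% and 2.07% in OFT-banded hearts, against 2.27%, 2.23% and 2.44% in sham hearts. With limma on values so scaled, these 4 genes had unadjusted p-values of 0.0103 (RPL22), 0.0235 (RPLP0), 0.0493 (RPL4) and 0.0453 (RPS3), and each had an adjusted p of 0.718. They were the 4 of 51 under 0.05 on this scale. Of all transcripts 5.27% were, but this share is no like background either.

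**Figure D5:**
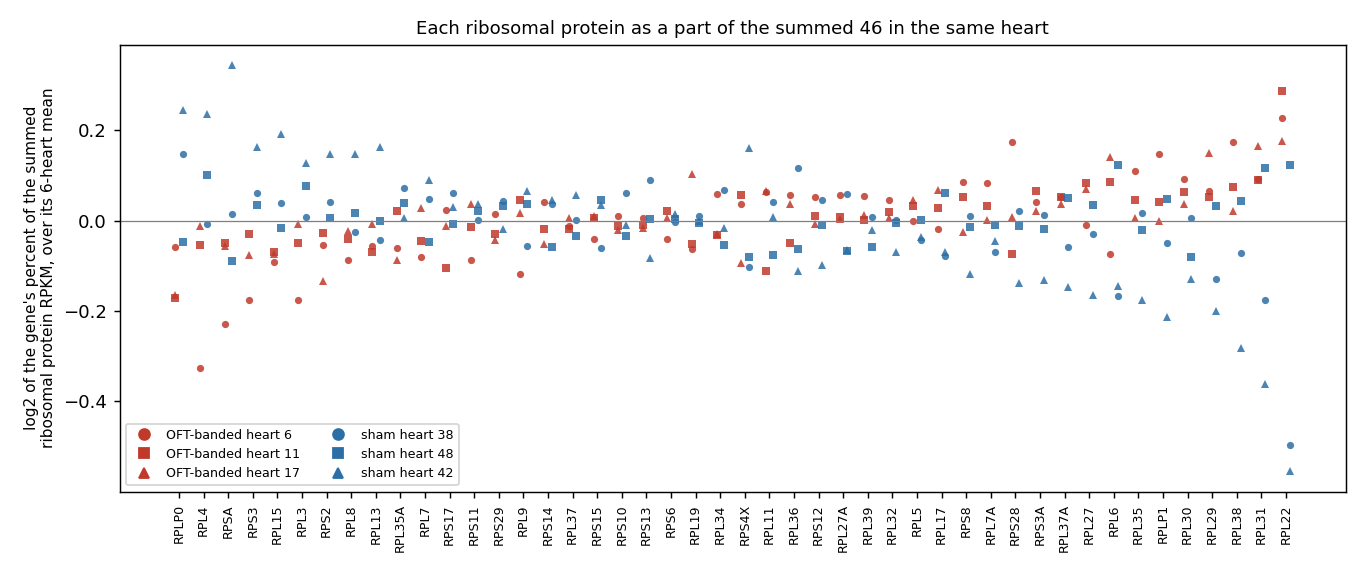
Each of the 46 subunit genes as a percentage of their summed RPKM in the same heart, drawn as log2 over the gene's mean percentage in the 6 hearts, with 1 point per heart (red, OFT-banded; blue, sham) and genes in order of the ratio of group means. RPLP0 and RPL4 stand at the left with ratios of -0.25 and -0.24 (log2) and RPL22 at the right with 0.51.

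RPL5 and RPL11, which carry 5S ribosomal RNA into the large subunit and can bind MDM2 when free, overlapped between the groups. RPL5 had 4139, 3411 and 3428 RPKM in OFT-banded hearts, against 3485, 3311 and 3078 RPKM in sham hearts (log2 fold change 0.15, adjusted p = 0.636 by limma). RPL11 had 3657, 2608 and 2935 RPKM in OFT-banded hearts, against 3124, 2650 and 2679 RPKM in sham hearts (log2 fold change 0.11, adjusted p = 0.753 by limma). In both, heart 6 was highest, and without it the log2 fold change was 0.06 for RPL5 and -0.02 for RPL11.

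None of the 16 small subunit genes listed once was free of overlap in RPKM, where 16.3% of all transcripts were. RPS6, the substrate of S6 kinase, had 3962, 3325 and 3276 RPKM in OFT-banded hearts, against 3521, 3258 and 3131 RPKM in sham hearts (log2 fold change 0.09, adjusted p = 0.752 by limma). RPSA, which is also known as a laminin receptor, had 5465, 4984 and 4938 RPKM in OFT-banded hearts, against 5610, 4806 and 6197 RPKM in sham hearts (log2 fold change -0.10, adjusted p = 0.742 by limma). Heart 42 was thus lowest for RPS6 but highest for RPSA, as it was for RPL4. The log2 fold change of RPS6 was 0.00 without heart 6, and that of RPSA was -0.02 without heart 42. The log2 fold changes of the 16 genes lay between -0.10 for RPSA and 0.19 for RPS3A.

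RPL7L1 and RPL3L were far below their partners RPL7 and RPL3, while for RPS27L no partner was analysed here. RPS27L, a p53 target in human cells, had 78.2, 64.2 and 56.4 RPKM in OFT-banded hearts, against 63.9, 49.8 and 47.7 RPKM in sham hearts (log2 fold change 0.29, adjusted p = 0.548 by limma). This was 0.17 without heart 6 and -0.02 with the erythroid covariate. RPL7L1 had 218, 217 and 203 RPKM in OFT-banded hearts, against 243, 215 and 218 RPKM in sham hearts, about 0.06 of the RPL7 level per kilobase in both groups. Its ratio to RPL7 was 0.0603 ± 0.00575 in OFT-banded hearts and 0.0653 ± 0.00119 in sham hearts (n = 3 each, SD), with p = 0.3 in a two-sided exact permutation test (adjusted p = 0.375 over 5 ratios). In both genes the groups overlapped.

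RPL3L, which replaces RPL3 in the ribosomes of adult mammalian heart and skeletal muscle, was barely present at this stage. It had 1.86, 2.61 and 2.75 RPKM in OFT-banded hearts, against 1.96, 3.05 and 1.38 RPKM in sham hearts, while RPL3 had 2554 ± 178 RPKM in OFT-banded hearts and 2642 ± 66.2 RPKM in sham hearts (SD, n = 3 each). The lowest RPL3L value, in sham heart 42, stood for about 29.3 reads per kilobase, and the highest, in sham heart 48, for about 115 reads per kilobase. The ratio of RPL3L to RPL3 was 0.000953 ± 0.000242 in OFT-banded hearts and 0.000806 ± 0.000324 in sham hearts (n = 3 each, SD), with p = 0.7 in a two-sided exact permutation test (adjusted p = 0.7 over 5 ratios). No difference in RPL3L between the groups was detectable with 3 hearts per group at this depth.

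The symbols listed more than once held 1 transcript with a level above 0.5 RPKM. This was an RPS27A transcript (NM_001287205), which encodes ubiquitin fused to a 40S protein, with 13.3, 10.9 and 10.8 RPKM in OFT-banded hearts, against 11.5, 12.0 and 9.50 RPKM in sham hearts. The groups overlapped. An RPL12 transcript had 0.16, 0.38 and 0.26 RPKM in OFT-banded hearts, against 0.29, 0.50 and 0.45 RPKM in sham hearts. An RPS24 transcript did not exceed 0.14 RPKM, and the other 4 transcripts of these symbols were listed at 0 in all 6 hearts. In the table as a whole 252 symbols are listed more than once, and how reads were divided between transcripts of one symbol is not given in the sources used here, so these values may not measure the abundance of RPS24, RPL12 or RPS27A. Only uniquely aligned reads were kept, so that reads fitting a near-identical copy elsewhere in the genome were not counted for any gene.

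Genes around the ribosome were described from lists chosen with earlier results of these data known. The 40S scaffold RACK1, listed under the symbol GNB2L1, had 2924, 2523 and 2608 RPKM in OFT-banded hearts, against 3139, 2962 and 3153 RPKM in sham hearts. All OFT-banded hearts were below all sham hearts, the order shown by RPL4 (log2 fold change -0.20, adjusted p = 0.543 by limma). Of 23 tested ribosome assembly genes, 19 had the higher value in OFT-banded hearts, against 36.8% of all transcripts. Their median log2 fold change was 0.09, against 0.10 for the ribosomal proteins and -0.07 for all transcripts. In 6 of the 23 every OFT-banded heart was above every sham heart, against 5.23% of all transcripts. In 0 of the 23 every OFT-banded heart was below, against 11% of all transcripts. PNO1, which guides maturation of the 40S subunit, had 113 ± 11.3 RPKM in OFT-banded hearts and 73.5 ± 5.59 RPKM in sham hearts, and LLPH had 233 ± 28.98 RPKM in OFT-banded hearts and 140 ± 34.8 RPKM in sham hearts (SD, n = 3 each; adjusted p = 0.543 by limma for both).

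Of 8 other tested transcripts with a TOP tract, 6 were lower and 2 higher by value in OFT-banded hearts, with a median log2 fold change of -0.14, where 63.2% of all transcripts were lower. The poly(A)-binding protein PABPC1 had 1083 ± 77.9 RPKM in OFT-banded hearts and 1378 ± 144 RPKM in sham hearts (SD, n = 3 each), and the elongation factor EEF2 had 657 ± 26.6 RPKM in OFT-banded hearts and 785 ± 64.0 RPKM in sham hearts (SD, n = 3 each). In both the groups did not overlap, with an adjusted p of 0.543 by limma. In 5 of these 8 transcripts every OFT-banded heart was below every sham heart, against 11% of all transcripts. In 0 of the 8 every OFT-banded heart was above, against 5.23% of all transcripts. All 5 tested elongation and termination factors were lower by value (median -0.13), EEF2 being on both lists. In 3 of the 5 all OFT-banded hearts were below all sham hearts, and in 0 above. The 15 tested initiation factors were divided, with 8 higher and 7 lower by value (median 0.03), and with 2 separated upwards and 3 downwards. Of the genes listed for mTOR and TOP mRNA control 4 were tested, and all 4 were lower by value (median -0.34), among them PDCD4, an inhibitor of initiation, with 44.1 ± 1.44 RPKM in OFT-banded hearts and 63.4 ± 5.45 RPKM in sham hearts (SD, n = 3 each). In 2 of these 4 all OFT-banded hearts were below all sham hearts, and in 0 above. No gene of the assembly, initiation, elongation, TOP and mTOR lists passed an adjusted p of 0.05 by limma on RPKM. The study's DESeq test, however, listed PNO1, LLPH and PDCD4 as changed at a corrected p under 0.05. By limma, 2 of 23, 3 of 15, 2 of 5, 3 of 8 and 1 of 4 genes of these lists had an unadjusted p under 0.05 (8.57% of all transcripts).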

How the data were processed

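RNA was sequenced from 3 OFT-banded and 3 sham whole hearts at HH29. The authors trimmed strand-specific paired reads with scythe and sickle, aligned them to galGal4 with TopHat, kept unique alignments with a MAPQ of at least 20, took counts from HTSeq and used DESeq to compare the groups; versions are not given in the sources used here. The authors then deposited RPKM values (called FPKM in the paper), 1 per RefSeq transcript and heart, with group and heart number in the column names. Depth was read from whole-read steps of low values. At the step first fitted, at least 98.3% of these values lay within 0.1 of a whole read in each heart. In sham heart 42, 97.5% of these values fell on an even number of reads, so its reads per RPKM were then halved to 21.2. Sequencing was of paired reads, and whether a step was a single read or a read pair was not tested.

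From RPKM, log2(RPKM + 1) was tested with limma 3.58.1 in R 4.3.3 (intensity trend, mean RPKM of at least 1, Benjamini-Hochberg over 4726 transcripts); fold changes of low transcripts are understated on this scale. The code was tested on simulated data. Counts for a count test were not recovered, since transcript lengths were not at hand. Ratios of 2 genes were compared with exact permutation tests, two-sided. Members, gene lists and tests were chosen with earlier results of these data known. Genes were named for group separation, high or low level, high or low variation, paralogy or a listed role, and the 2 smallest p-values of each related list; genes outside this were named after their values were seen. Alternatives covered pseudocount, filter, scaling, moderation, left-out hearts, gene span (RefSeq, GRCg7b) and an erythroid covariate. Coordinates and sequences are not given because the reference at hand was of another build than galGal4.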

Additional observations from a re-analysis of the deposited data

How the results depend on the processing

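limma called 0 of the ribosomal protein transcripts at an adjusted p of 0.05 under every alternative run. The count at an unadjusted p under 0.05 was 1 of 51 as reported (8.57% of all transcripts). It was 2 after rescaling to TPM (7.92%), with globin genes left out (8.89%) and with the gene-span trend removed (9.55%). With the erythroid covariate it was 0 (6.09%). After scaling to the summed ribosomal proteins, the scaling chosen after the data were seen, it was 4 (5.27%, no like background there). With 1 heart left out it was 1 to 2 (4.15% to 13.8%). The count of transcripts whose groups did not overlap, 4 of 51 as reported (16.3% of all transcripts), was 8 with TPM (15.7%) and 2 with median-ratio scaling (15.5%). RPL22L1 overlapped under both of these scalings, and RPL4 with median-ratio scaling. The count was 7 with the gene-span trend removed (17.3%) and 13 after scaling to the summed ribosomal proteins (11.6%, no like background there). With 1 heart left out it was 4 to 20, 20 being without sham heart 38 (41.3%) and 11 without OFT-banded heart 6 (26.1%). The count higher by value, 43 of 51 as reported (36.8% of all transcripts), was 12 with the erythroid covariate (50.9%). It was 27 after scaling to the summed ribosomal proteins (22.8%, no like background there), and 27 to 44 with 1 heart left out, the lowest without heart 6 (44.1%). With the erythroid covariate the median log2 fold change was -0.0616 over all tested members, -0.0495 for 60S and -0.103 for 40S genes, and single values turned to -0.0151 for RPS27L, -0.04 for RPLP1, -0.0706 for RPL11 and -0.0586 for RPS6. RPS6 was at -0.0087 after scaling to the summed ribosomal proteins. With 1 heart left out RPL11 ranged from -0.022 (without heart 6) to 0.222 and RPL3L from -0.0335 (without heart 42) to 0.35. The cause of these shifts was not tested. No paired analysis was possible because the labels number the samples 1 to 3 in each group while the columns of values carry other heart numbers. The 2 groups of 3 hearts limit what small differences could be seen. The shallower library of heart 42 bears mainly on low transcripts such as RPL3L. Even RPS14, the lowest subunit gene, stood there for about 20460 reads per kilobase. The p-values by limma set a group difference against the spread between these hearts, moderated over all tested transcripts.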
